A study of Homo sapiens with 36 samples.

Results

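The expression of 34 target genes of p53 was followed gene by gene in human neural stem cells in which MEIS1 or MEIS2, a pair of related homeobox transcription factors, had been knocked out or overexpressed. The genes were listed by name as known p53 targets, with earlier results of these data known. All 34 were found among the 28516 gene symbols of the count table. All 34 also held at least 10 counts summed over the libraries, a limit that 19689 genes passed and that defined the genes tested. The least abundant was PERP, with 2 to 32 counts per library.

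p53 is a transcription factor that is held at a low level by the ubiquitin ligase MDM2 and released when broken DNA activates kinases such as ATM and CHEK2. It then binds DNA elements near its target genes and activates them, among them genes that stop the cell cycle, genes that promote cell death, DNA repair genes and MDM2 itself, which closes a feedback loop. p53 is controlled mostly through the stability of its protein, and in neural stem cells it is known as a brake on self-renewal.

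The cells (hNSC from Gibco, grown on Geltrex) were transduced with lentivirus and harvested 48 h later as whole populations and not as clones. MEIS1-KO and MEIS2-KO cells received lentiCRISPRv2, which encodes Cas9, with 2 guides per gene mixed in equal parts, and ctrl-KO cells received the same vector with non-targeting guide RNA. MEIS1-OE and MEIS2-OE cells received the CRISPR-activation system, in which a catalytically dead Cas9 fused to VP64, a guide with MS2 loops and an MS2-bound activator come from 3 separate viruses, and ctrl-OE cells received the same system with non-targeting guide RNA. Each of the 6 groups had 6 libraries (n = 6), and mRNA was sequenced to between 15429985 and 22940493 counts per library, with a median of 20324720. Since the labels do not say whether the libraries of a group came from separate cultures, the p-values measure the spread between these libraries, which may be technical.

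The knockout guides are shown because they mark what separates the knockouts from ctrl-KO: they cut a site in the genome, whereas the non-targeting guide has no intended site. Cutting by Cas9 and loss of MEIS1 or MEIS2 can therefore not be told apart in a knockout against ctrl-KO. The PAM, the motif that Cas9 needs beside its target, is in capitals, and positions are on GRCh37 (hg19). MEIS1-g2 and MEIS1-g3 lie on the plus strand in exon 7 and exon 8 of MEIS1, MEIS2-g2 lies on the minus strand in exon 7 of MEIS2, and MEIS2-g5 lies on the plus strand and overlaps exon 7 of MEIS2 by 3 bases, with its cut in the neighbouring intron.
MEIS1-g2 at chr2:66691310-66691332: ggtggccacacgtcacacagTGG
MEIS1-g3 at chr2:66739346-66739368: aaaaagcgtcacaaaaagcgTGG
MEIS2-g2 at chr15:37376024-37376046: cccactcagcaggcaccccaGGG
MEIS2-g5 at chr15:37376084-37376106: gttctgatgtcaggataccaAGG

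What many of the target genes share in sequence is the p53 consensus element, a pair of 10-base units that each hold a fixed C and a fixed G. The window from 2500 bases before to 2500 bases after the start of the canonical transcript was searched for the 20-base element, with no spacer between the units, with both fixed letters of each unit required and up to 2 mismatches elsewhere. The element reads the same on both strands, so that 1 search covers both. It was present in 18 of 34 windows (52.9%), against 648 of 16914 windows (3.83%) of all tested genes with an annotated start. Without mismatches it was present in 2 of the 34 windows (5.88%) and in 11 of all windows (0.065%). These are matches of letters, and binding of p53 was not measured. Elements are shown for PLK2 and ZMAT3, the exact matches, and for other members whose values the results turn on, read along the gene's own strand with the fixed letters in capitals.
PLK2 at chr5:57758101-57758120: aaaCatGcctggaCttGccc
ZMAT3 at chr3:178787976-178787995: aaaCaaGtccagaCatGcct
GADD45A at chr1:68152458-68152477: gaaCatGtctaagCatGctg
DDB2 at chr11:47236520-47236539: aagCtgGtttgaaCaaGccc
CDKN1A at chr6:36644226-36644245: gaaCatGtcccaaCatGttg
BTG2 at chr1:203272770-203272789: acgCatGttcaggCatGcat
FAS at chr10:90751066-90751085: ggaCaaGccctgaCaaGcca
AEN at chr15:89164537-89164556: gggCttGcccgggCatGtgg
MDM2 at chr12:69202703-69202722: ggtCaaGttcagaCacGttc
GDF15 at chr19:18496118-18496137: catCttGcccagaCttGtct
CMBL at chr5:10307696-10307715: acaCaaGcccacaCaaGccc
PMAIP1 at chr18:57566781-57566800: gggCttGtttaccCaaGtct

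Counted from the start of the canonical transcript, with negative values upstream, the middle of the element lay at -2256 bases in CDKN1A, -2198 in PLK2, -1868 in BTG2 and -841 in GDF15. It lay within the transcribed gene at 661 bases in FAS, 755 in MDM2 and 1583 in GADD45A, and next to the start at -25 in AEN and 4 in DDB2. The other 16 members had no match of this form in the window, which says only that these letters were not found there.

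Before the members, the labels were checked on the targeted genes. MEIS1 was at a median of 8.88 CPM (read counts scaled to a common library size, after TMM normalisation) in MEIS1-KO against 25.6 in ctrl-KO (log2 fold change -1.52), and at 315 in MEIS1-OE against 18.03 in ctrl-OE (4.12). MEIS2 was at 12.2 in MEIS2-KO against 26.4 in ctrl-KO (-1.10), and at 824 in MEIS2-OE against 22.8 in ctrl-OE (5.19). Groups of the targeted gene did not overlap in any of these comparisons. The stem cell markers SOX2, NES and VIM were expressed, with group medians of 109 to 298, 887 to 1689 and 1998 to 3064 CPM. The 7 listed neuronal markers were mixed. MAP2 (group medians of 237 to 755 CPM), TUBB3 (155 to 228) and SYT1 (32.6 to 56.2) were expressed, while SNAP25 was at 1.39 to 5.29, DCX at 0.201 to 0.857, STMN2 at most at 0.101 and RBFOX3 at 0 CPM. The pluripotency markers POU5F1 and NANOG had group medians of at most 0.143 and 0.0467 CPM, whereas LIN28A, at 297 to 491 CPM, and DPPA4, at 111 to 124 CPM, were expressed in every group.

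The first question was whether p53 targets differed between the knockouts and their control. In MEIS2-KO 24 of 34 members rose (70.6%) at an adjusted p under 0.05, while 4.04% of all tested genes rose, and in MEIS1-KO 11 of 34 rose (32.4%), while 1.03% of all tested genes rose. As the members were chosen with earlier results of these data known, these shares are a description and not a test of the list. The rises were small, with a median log2 fold change over the members of 0.24 in MEIS2-KO and 0.20 in MEIS1-KO, against -0.011 and 0.0033 over all tested genes. No member fell in either knockout by edgeR's quasi-likelihood test, with 0 lower also at an unadjusted p under 0.05 and 0 by DESeq2, while 5.98% of all tested genes fell in MEIS2-KO and 0.432% in MEIS1-KO. The members as a whole took a larger share of the reads: 0.503% to 0.528% (median 0.521%) in MEIS2-KO, 0.480% to 0.519% (median 0.490%) in MEIS1-KO and 0.407% to 0.443% (median 0.428%) in ctrl-KO, so that both knockout ranges lay above that of ctrl-KO. In these bulk samples a larger share of responding cells and more RNA per cell cannot be told apart.

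Before the members in turn, a property of the libraries has to be given, since it moves with them. In some libraries genes with GC-rich transcripts were higher and genes with AT-rich transcripts lower than in the other libraries of the group. The slope of each library was measured over 12533 genes with a mean above 1 CPM and a known GC content, as log2 units per 10 points of GC. Group medians of the slope were -0.0811 in ctrl-KO, -0.0855 in MEIS1-KO, -0.00751 in MEIS2-KO, 0.0419 in ctrl-OE, 0.120 in MEIS1-OE and 0.0325 in MEIS2-OE. Relative to the group mean, MEIS1-OE replicate 3 (-0.261), MEIS1-KO replicate 6 (0.257) and ctrl-OE replicate 6 (0.175) stood farthest apart. All 9 members with a GC content above 55% followed the slope within groups (Pearson r across the 36 libraries from 0.689 for CDKN1A to 0.978 for PHLDA3, a description, since the points share the base composition of each library), and 13 of 14 members with a GC content below 45% ran against it (PMAIP1 was the exception). The 11 members between these ends were mixed. SERTAD1 followed the slope (r = 0.82), EDA2R (-0.77), CMBL (-0.74), PPM1D (-0.69) and POLH (-0.69) ran against it, and the other 6 lay closer to 0, from -0.26 for BTG2 to 0.21 for XPC. With the slope added to the fit as a covariate, a choice made after the data were seen, 29 of 34 members then rose in MEIS1-KO, where 4.44% of all tested genes were called in either direction, and 29 rose in MEIS2-KO, where 13.05% were called. Without the 3 libraries named above, 21 members rose in MEIS1-KO, where 1.79% of all tested genes were called in either direction, and 29 in MEIS2-KO, where 15.15% were called. Across the 34 members the GC content of the transcript went with the log2 fold change, with Pearson r = 0.72 in MEIS2-KO and 0.62 in MEIS1-KO, a description over members that share the same libraries. The part of GC content in the members' rise was not tested beyond these fits.

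**Figure D1:**
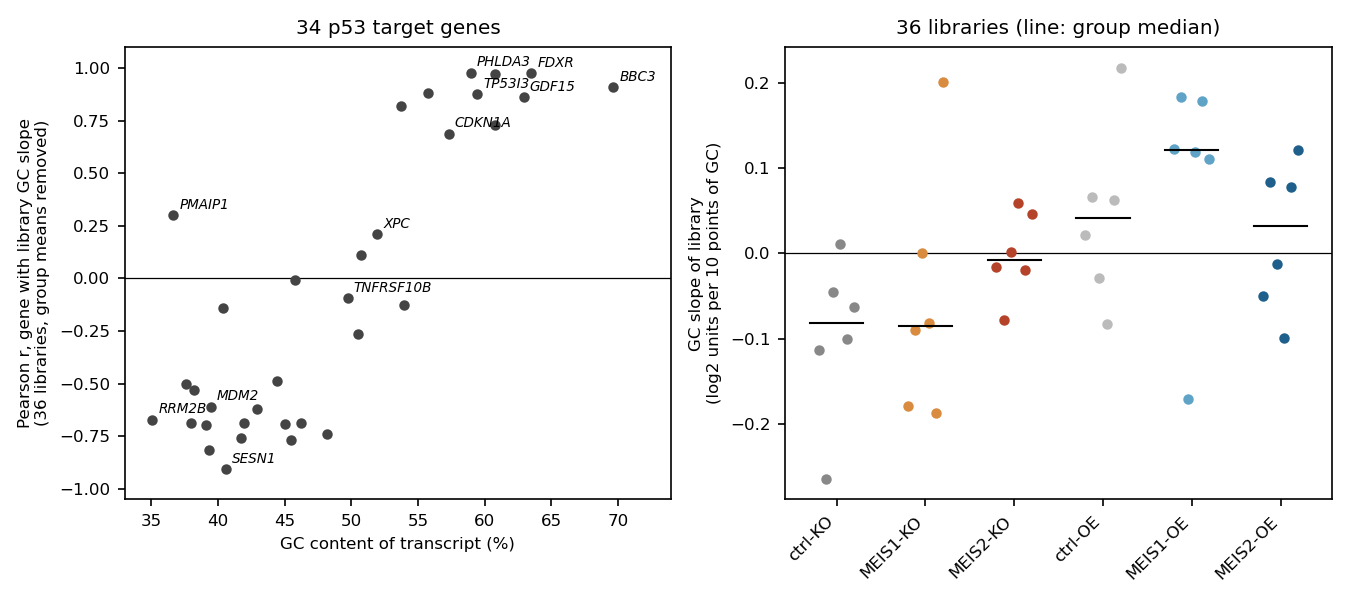
On the left, each point is 1 of the 34 p53 target genes, with the GC content of its transcript on the horizontal axis and, on the vertical axis, the Pearson correlation over the 36 libraries between the gene's log2 level and the GC slope of the library, both with group means removed. On the right, each point is the GC slope of 1 library, by group, with the group median as a line: MEIS1-KO replicate 6 and ctrl-OE replicate 6 lie above and MEIS1-OE replicate 3 lies below the rest of their groups, and on the left FDXR, a GC-rich member, lies at r = 0.974 and SESN1, an AT-rich one, at r = -0.905.

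Among the genes of arrest and growth control, 7 of 9 rose in MEIS2-KO and 4 of 9 in MEIS1-KO. CDKN1A, which encodes the cyclin-dependent kinase inhibitor p21, was at 309.6, 352 and 398 CPM in ctrl-KO (lowest, median and highest library, the order used throughout), 385, 454 and 516 in MEIS1-KO and 439.8, 513 and 536 in MEIS2-KO. All 6 MEIS2-KO libraries and 5 of 6 MEIS1-KO libraries were above every ctrl-KO library. CDKN1A rose 1.43-fold in MEIS2-KO (log2 fold change 0.52 ± 0.074 (SE), adjusted p = 1.29e-05, edgeR) and 1.31-fold in MEIS1-KO (0.39 ± 0.074 (SE), adjusted p = 0.00218). GADD45A, a stress sensor that slows the cell cycle, was at 23.7, 26.7 and 27.6 CPM in ctrl-KO, 30.7, 32.9 and 37.98 in MEIS1-KO and 33.2, 34.8 and 36.99 in MEIS2-KO. Neither knockout overlapped ctrl-KO, and GADD45A rose in both, by 0.41 ± 0.061 in MEIS2-KO (edgeR adjusted p = 2.85e-05) and by 0.35 ± 0.061 in MEIS1-KO (adjusted p = 9.73e-04). PLK2, a polo-like kinase with its p53 element upstream, was at 167, 175 and 213 CPM in ctrl-KO, 216, 227 and 250.0 in MEIS1-KO and 213, 228 and 248 in MEIS2-KO. It rose by 0.35 ± 0.069 in MEIS1-KO (edgeR adjusted p = 0.00319), where all libraries were above ctrl-KO, and by 0.36 ± 0.069 in MEIS2-KO (adjusted p = 7.04e-04), where 5 of 6 were. BTG2, an antiproliferative transcriptional cofactor, was at 58.3, 67.8 and 78.4 CPM in ctrl-KO, 78.1, 81.3 and 93.99 in MEIS1-KO and 79.3, 86.9 and 97.6 in MEIS2-KO. The MEIS2-KO libraries were all above ctrl-KO, and BTG2 rose by 0.37 ± 0.078 there (edgeR adjusted p = 0.00150) and by 0.29 ± 0.078 in MEIS1-KO (adjusted p = 0.0440), where 5 of 6 libraries were above ctrl-KO.

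PLK3, another polo-like kinase, was at 22.99, 23.99 and 29.2 CPM in ctrl-KO, 24.5, 29.8 and 36.3 in MEIS1-KO and 32.9, 34.4 and 38.3 in MEIS2-KO. It rose in MEIS2-KO, without overlap (0.47 ± 0.085 (SE), adjusted p = 3.62e-04, edgeR), and had 0.27 ± 0.086 (SE), adjusted p = 0.112 in MEIS1-KO. GDF15, a secreted stress cytokine, had the steepest rise of the 34 members in MEIS2-KO, at 1.78-fold (0.84 ± 0.17 (SE), adjusted p = 0.00136, edgeR). Its levels were 11.5, 15.7 and 19.01 CPM in ctrl-KO, 15.4, 20.1 and 34.4 in MEIS1-KO and 21.2, 29.3 and 31.02 in MEIS2-KO, so that MEIS2-KO did not overlap ctrl-KO while MEIS1-KO spread over more than its control, with 0.61 ± 0.17 (SE), adjusted p = 0.0658. GDF15 is GC-rich (62.9%), and with the GC slope in the fit its change in MEIS2-KO was 0.59. SESN1, a sestrin that restrains mTORC1, rose in MEIS2-KO by 0.18 ± 0.058 (edgeR adjusted p = 0.0356) with overlapping groups. CCNG1 (cyclin G1) and SERTAD1, a cyclin D and CDK4 partner, did not pass the test in either knockout, with 0.15 and 0.28 in MEIS1-KO and 0.12 and 0.43 in MEIS2-KO. CCNG1 passed with the GC slope in the fit, at 0.17 in MEIS1-KO (edgeR adjusted p = 0.0055) and 0.18 in MEIS2-KO (adjusted p = 0.0018). SERTAD1 did not pass in that fit, at 0.17 in MEIS1-KO and 0.24 in MEIS2-KO.

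**Figure D2:**
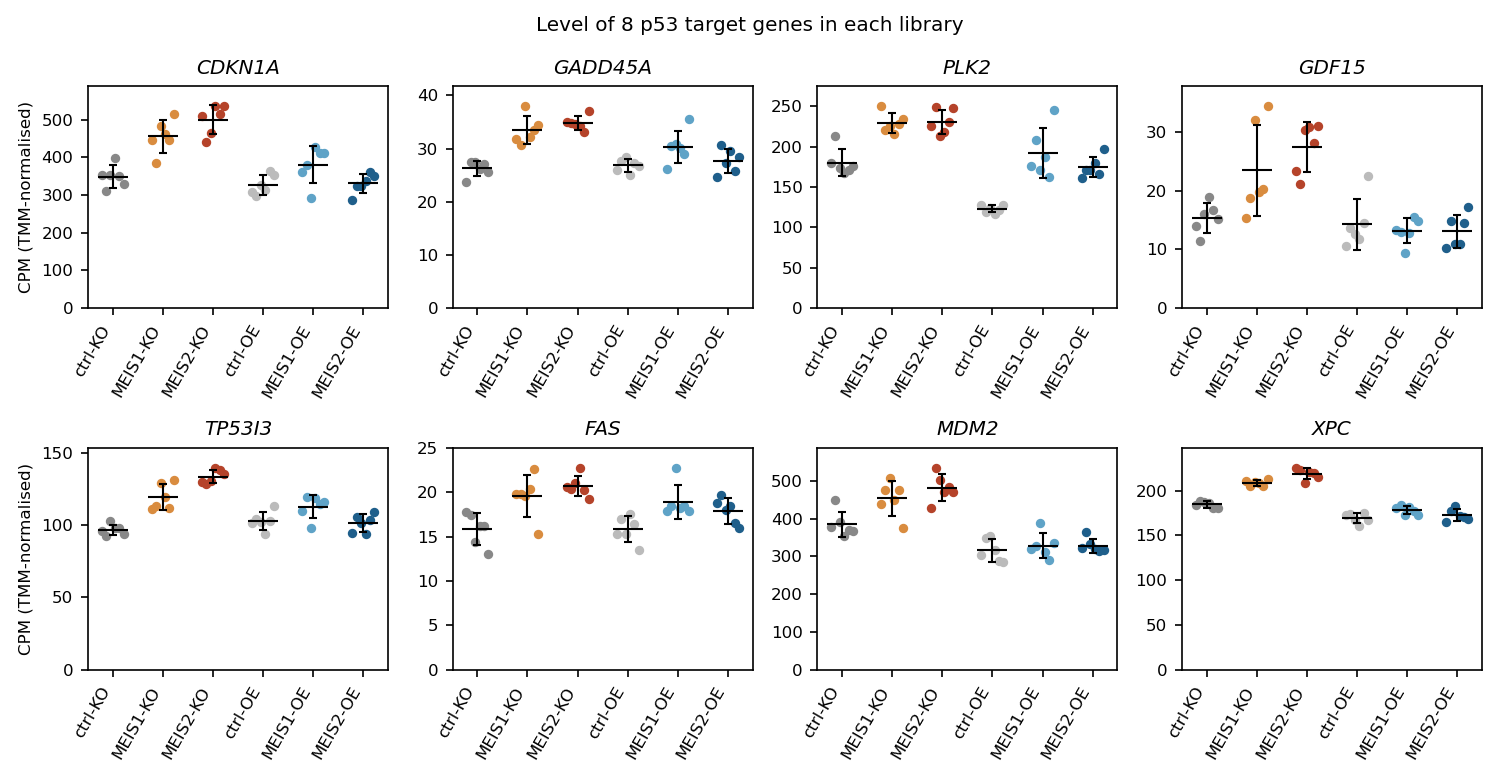
TMM-normalised CPM (vertical axis, from 0) of 8 members in each library (points) of the 6 groups, with the group mean and SD (n = 6). All MEIS2-KO libraries lie above all ctrl-KO libraries for CDKN1A, GADD45A, GDF15, TP53I3, FAS and XPC, and in PLK2 all libraries of both activations lie above ctrl-OE.

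Among the genes of cell death, 6 of 12 rose in MEIS2-KO and 3 of 12 in MEIS1-KO, TP53I3, TNFRSF10B and FAS in both. TP53I3 (PIG3), a quinone oxidoreductase linked to oxidative stress, was at 92.2, 97.02 and 103 CPM in ctrl-KO, 111, 117 and 132 in MEIS1-KO and 129, 133 and 139.8 in MEIS2-KO. Neither knockout overlapped ctrl-KO. TP53I3 rose 1.38-fold in MEIS2-KO (0.47 ± 0.050 (SE), adjusted p = 1.45e-07, edgeR), with the smallest p of the members there, and 1.24-fold in MEIS1-KO (0.30 ± 0.050 (SE), adjusted p = 5.28e-04). TNFRSF10B, the death receptor DR5, was at 692, 705 and 725 CPM in ctrl-KO, 769, 792 and 811 in MEIS1-KO and 785, 804 and 816 in MEIS2-KO. Its rise was only 1.12-fold in MEIS1-KO and 1.14-fold in MEIS2-KO, yet both groups lay wholly above ctrl-KO (edgeR adjusted p = 0.00104 and 4.74e-05). FAS, the death receptor CD95, was at 13.04, 16.2 and 17.8 CPM in ctrl-KO, 15.3, 19.8 and 22.7 in MEIS1-KO and 19.3, 20.5 and 22.8 in MEIS2-KO. FAS rose by 0.39 ± 0.081 in MEIS2-KO (edgeR adjusted p = 0.00147), without overlap, and by 0.31 ± 0.081 in MEIS1-KO (adjusted p = 0.0413), where 5 of 6 libraries were above ctrl-KO. AEN, a nuclease that takes part in apoptosis, was at 179.6, 189 and 201 CPM in ctrl-KO, 196, 211 and 252 in MEIS1-KO and 213, 227 and 242 in MEIS2-KO. It rose in MEIS2-KO, without overlap (0.26 ± 0.059 (SE), adjusted p = 0.00393, edgeR), and had 0.21 ± 0.059 (SE), adjusted p = 0.0689 in MEIS1-KO.

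The remaining death genes divided between small rises and values that did not pass. BAX, which permeabilises mitochondria, rose in MEIS2-KO by 0.31 ± 0.096 (edgeR adjusted p = 0.0314) without overlap, and by 0.16 with the GC slope in the fit. EDA2R, a TNF receptor family member, rose there by 0.17 ± 0.056 (adjusted p = 0.0424), with 4 of 6 libraries above ctrl-KO. The BH3-only genes, which act upstream of BAX, did not pass in either knockout: BBC3 (PUMA) had a log2 fold change of 0.41 ± 0.18 in MEIS2-KO, where 4 of 6 libraries were above ctrl-KO, and PMAIP1 (NOXA) had -0.12 ± 0.11. BBC3 is the most GC-rich member (69.7%), and its value in MEIS2-KO was 0.13 with the GC slope in the fit (edgeR adjusted p = 0.296) and 0.41 without the 3 libraries of steep slope (adjusted p = 0.0225). TP53INP1, SPATA18, ZMAT3 and PERP did not pass either, at 0.16, 0.081, 0.16 and -0.17 in MEIS2-KO and 0.15, 0.26, 0.20 and -0.13 in MEIS1-KO. PERP, a desmosomal membrane protein, had at most 10 counts in any library of the knockout system, so that a change of this size in it was not detectable at this depth. TP53INP1 passed in both knockouts with the GC slope in the fit, at 0.27 in MEIS2-KO (edgeR adjusted p = 6.8e-05) and 0.20 in MEIS1-KO (adjusted p = 0.0053). ZMAT3 also passed in both in that fit, at 0.23 and 0.22 (adjusted p = 0.0067 and 0.016). SPATA18 passed there in MEIS1-KO only (0.28, adjusted p = 0.017), and PERP in neither.

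Of the genes of feedback and survival, 5 of 6 rose in MEIS2-KO and 1 of 6, FBXO22, in MEIS1-KO. MDM2, the ligase that degrades p53, was at 355, 375 and 449 CPM in ctrl-KO, 374, 462 and 509 in MEIS1-KO and 427, 478 and 535 in MEIS2-KO. In MEIS2-KO 5 of 6 libraries and in MEIS1-KO 3 of 6 lay above every ctrl-KO library, and MDM2 rose 1.25-fold in MEIS2-KO (0.32 ± 0.068 (SE), adjusted p = 0.00169, edgeR) but did not pass in MEIS1-KO (0.24 ± 0.068 (SE), adjusted p = 0.0717). FBXO22, a ubiquitin ligase subunit, was at 80.2, 86.9 and 93.9 CPM in ctrl-KO, 88.9, 99.9 and 109 in MEIS1-KO and 92.1, 96.7 and 100.2 in MEIS2-KO. It rose by 0.19 ± 0.043 in MEIS1-KO (edgeR adjusted p = 0.0120) and by 0.15 ± 0.043 in MEIS2-KO (adjusted p = 0.0230), with 5 of 6 libraries of each above ctrl-KO. PHLDA3, an inhibitor of AKT, TRIAP1, an apoptosis inhibitor of mitochondria, and RPS27L, a ribosomal protein paralog, rose in MEIS2-KO by 0.51, 0.22 and 0.19 (edgeR adjusted p = 0.0230, 0.00201 and 0.0174). With the GC slope in the fit the rise of PHLDA3 was 0.27. PPM1D, the phosphatase WIP1 that ends p53 signalling, had 0.18 ± 0.071 in MEIS2-KO and 0.17 ± 0.071 in MEIS1-KO and passed in neither. PPM1D passed in both with the GC slope in the fit, at 0.26 in MEIS2-KO (edgeR adjusted p = 2.7e-04) and 0.20 in MEIS1-KO (adjusted p = 0.0091). MDM2 also passed in MEIS1-KO in that fit (0.27, edgeR adjusted p = 7.6e-04), as did PHLDA3 (0.25), TRIAP1 (0.18) and RPS27L (0.21).

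Of the genes of DNA repair and nucleotide supply, 3 of 4 rose in MEIS2-KO and 2 of 4 in MEIS1-KO. XPC, the damage sensor of global nucleotide excision repair, was at 180.1, 185 and 189 CPM in ctrl-KO, 205, 209 and 212 in MEIS1-KO and 209, 220.3 and 226 in MEIS2-KO. The 3 ranges were narrow and both knockouts lay wholly above ctrl-KO, with rises of 1.13-fold in MEIS1-KO (edgeR adjusted p = 9.06e-04) and 1.19-fold in MEIS2-KO (adjusted p = 1.54e-06). POLH, a translesion polymerase, was at 70.3, 77.5 and 80.7 CPM in ctrl-KO, 77.6, 91.8 and 103 in MEIS1-KO and 80.2, 94.6 and 103 in MEIS2-KO. It rose by 0.26 ± 0.068 in MEIS1-KO (edgeR adjusted p = 0.0435) and by 0.29 ± 0.068 in MEIS2-KO (adjusted p = 0.00429), each with 5 of 6 libraries above ctrl-KO. DDB2, a partner of XPC in damage recognition, rose in MEIS2-KO by 0.16 ± 0.043 (edgeR adjusted p = 0.0120) without overlap. RRM2B, a ribonucleotide reductase subunit, had 0.13 ± 0.061 in MEIS2-KO and 0.17 ± 0.061 in MEIS1-KO and passed in neither. It passed in both with the GC slope in the fit, at 0.20 in MEIS2-KO (edgeR adjusted p = 0.00175) and 0.19 in MEIS1-KO (adjusted p = 0.0058). Of the other targets, CMBL, a hydrolase, was at 80.8, 84.5 and 96.6 CPM in ctrl-KO, 91.9, 97.04 and 106 in MEIS1-KO and 98.2, 100.0 and 107 in MEIS2-KO. CMBL rose by 0.18 ± 0.044 in MEIS1-KO (edgeR adjusted p = 0.0252), where 4 of 6 libraries were above ctrl-KO, and by 0.23 ± 0.044 in MEIS2-KO (adjusted p = 5.87e-04), where all were. FDXR, a mitochondrial ferredoxin reductase, rose 1.55-fold in MEIS2-KO (0.63 ± 0.14 (SE), adjusted p = 0.00199, edgeR), or by 0.42 on the log2 scale with the GC slope in the fit. TRIM22, an antiviral protein, rose there by 0.22 ± 0.066 (edgeR adjusted p = 0.0268).

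**Figure D3:**
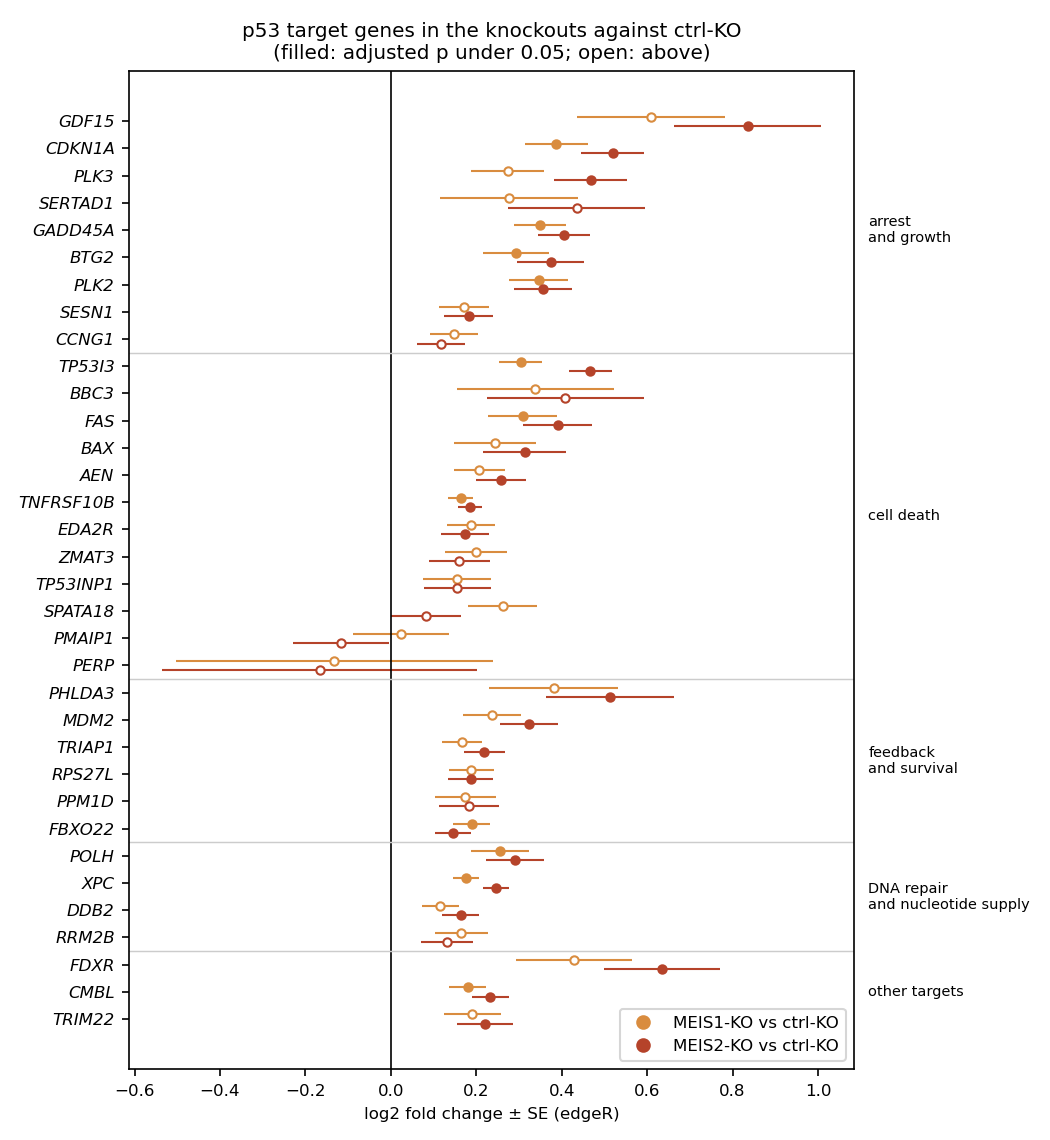
Log2 fold change with its SE (horizontal axis) of each of the 34 members (rows, grouped by role) in MEIS1-KO and in MEIS2-KO against ctrl-KO, filled where the adjusted p was under 0.05. In MEIS1-KO 33 and in MEIS2-KO 32 of the 34 points lie right of 0, and none of the points left of 0 is filled. Both comparisons share the ctrl-KO libraries.

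All 11 members that rose in MEIS1-KO also rose in MEIS2-KO, a comparison in which both share the ctrl-KO libraries, and 13 more rose in MEIS2-KO only by the threshold. The direct comparison of MEIS2-KO with MEIS1-KO, in which ctrl-KO takes no part, called 0 of 34 members with edgeR and 0 with DESeq2, against 0.0152% of all tested genes. At an unadjusted p under 0.05 it gave 4 members, of which 3 were higher and 1 lower in MEIS2-KO. The share of all tested genes at that unadjusted limit was not counted. TP53I3 had a log2 difference of 0.16 ± 0.050, PLK3 of 0.19 ± 0.084, XPC of 0.069 ± 0.030 and SPATA18 of -0.18 ± 0.080, each with an edgeR adjusted p of 0.855. The knockouts were thus not shown to differ in any member. Libraries of a group that all lay above all ctrl-KO libraries were seen for 5 members in MEIS1-KO (0.762% of all tested genes) and for 16 in MEIS2-KO (2.39%). With a further limit of 0.58 on the log2 fold change, the members called were 0 in MEIS1-KO (0.234% of all tested genes rose past it) and 2 in MEIS2-KO, GDF15 and FDXR (1.21%). The value of FDXR with the GC slope in the fit lay below this limit. The count in MEIS1-KO rested in part on single libraries: it fell to 6 without ctrl-KO replicate 6 and to 7 without MEIS1-KO replicate 3, while in MEIS2-KO it stayed between 19 and 25 whichever library was left out. Of all tested genes 0.951% and 0.712% were called in these fits of MEIS1-KO, and 6.90% to 10.84% in those of MEIS2-KO. Over 12 alternative settings, 6 of them without 1 replicate number each, the MEIS1-KO call was lost in 6 for CMBL, FAS and POLH (highest edgeR adjusted p = 0.134, 0.225 and 0.249), in 5 for BTG2 (0.199) and in 4 for FBXO22. In MEIS2-KO the calls of SESN1, BAX and EDA2R were each lost in 5 and that of FBXO22 in 4. Those of PHLDA3, RPS27L and TRIM22 were each lost in 3 there, and that of DDB2 in 1.

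Members were also divided by whether an element was found in the window. Of the 18 with an element 13 rose in MEIS2-KO and 7 in MEIS1-KO, and of the 16 without one 11 and 4 rose. Of all tested genes 4.04% rose in MEIS2-KO and 1.03% in MEIS1-KO. Median log2 fold changes were 0.25 and 0.23 in MEIS2-KO and 0.22 and 0.19 in MEIS1-KO, with the element and without it. In MEIS1-OE 5 of the 18 and 1 of the 16 rose, against 5.52% of all tested genes. These differences were not tested.

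Other genes of the pathway were followed as lists. TP73, a p53 family member, rose in both knockouts, by 0.48 ± 0.13 in MEIS1-KO (edgeR adjusted p = 0.0498) and by 0.77 ± 0.13 in MEIS2-KO (adjusted p = 1.15e-04). CHEK1, a checkpoint kinase, and RCHY1, a ubiquitin ligase of p53, were lower in MEIS2-KO (-0.18 and -0.23). Of 12 genes of double-strand break repair, 2 fell in MEIS2-KO, XRCC5 (-0.19) and BRCA1 (-0.21), and the others passed in neither knockout. Of 14 cell cycle genes that p53 lowers through p21 and the DREAM complex, 2 fell in MEIS2-KO, MKI67 (-0.33) and CCNA2 (-0.19), and the others passed in neither knockout, with a median over the list of 0.064 in MEIS1-KO and -0.022 in MEIS2-KO. From the integrated stress response list of 10 genes, ATF3 and SESN2, which p53 is also known to activate, rose in both knockouts, ATF3 by 0.59 and 0.67 and SESN2 by 0.30 and 0.46 in MEIS1-KO and MEIS2-KO. PPP1R15A rose in MEIS2-KO (0.36) and VLDLR fell there (-0.31). Of 5 mesenchymal markers, COL1A1 rose in both knockouts (0.82 and 1.06) and COL1A2 in MEIS2-KO alone by the threshold (0.27, against 0.21 in MEIS1-KO). The others passed in neither, with LUM at 0.11 and -0.19, DCN at -0.18 and -0.13 and TWIST1 at 0.18 and 0.31. The summed level of the 5 markers was 146 to 204 CPM in ctrl-KO, 183 to 295 in MEIS1-KO and 194 to 277 in MEIS2-KO, and their part in the members' rise was not tested.

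The second question was whether overexpression moved the same genes. In MEIS1-OE 6 of 34 members rose (17.6%) against 5.52% of all tested genes, and in MEIS2-OE 1 of 34 rose (2.94%) against 1.07%. None fell in either (edgeR, 0 also at an unadjusted p under 0.05, and 0 by DESeq2), while 3.58% and 0.279% of all tested genes fell. In MEIS1-OE the libraries of 4 members, PLK2, CMBL, TNFRSF10B and FAS, all lay above ctrl-OE (3.17% of all tested genes). The median log2 fold change of the members was 0.11 in MEIS1-OE and 0.026 in MEIS2-OE. The members took 0.441% to 0.461% of the reads (median 0.450%) in MEIS1-OE, wholly above ctrl-OE at 0.405% to 0.434% (median 0.414%), and 0.416% to 0.438% (median 0.427%) in MEIS2-OE, which overlapped ctrl-OE. PLK2 rose in both. It was at 117, 123 and 128 CPM in ctrl-OE, 162, 182 and 246 in MEIS1-OE and 161, 171 and 197 in MEIS2-OE. Both ranges lay wholly above ctrl-OE, with rises of 1.56-fold in MEIS1-OE (0.64 ± 0.069 (SE), adjusted p = 4.02e-09, edgeR) and 1.42-fold in MEIS2-OE (0.50 ± 0.069 (SE), adjusted p = 3.74e-06). PLK2 was thus the only member that rose in both knockouts and both activations.

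CMBL was at 57.96, 60.2 and 64.1 CPM in ctrl-OE, 74.5, 78.7 and 87.8 in MEIS1-OE and 58.5, 63.1 and 63.9 in MEIS2-OE. It rose without overlap in MEIS1-OE (0.39 ± 0.044 (SE), adjusted p = 1.87e-08, edgeR) and had 0.026 in MEIS2-OE. TNFRSF10B was at 684, 707 and 750.2 CPM in ctrl-OE, 755, 786 and 824 in MEIS1-OE and 715, 726 and 773 in MEIS2-OE, and rose in MEIS1-OE without overlap (0.15 ± 0.029 (SE), adjusted p = 3.31e-04, edgeR). FAS was at 13.6, 15.9 and 17.6 CPM in ctrl-OE, 17.9, 18.3 and 22.8 in MEIS1-OE and 15.98, 18.3 and 19.8 in MEIS2-OE. It rose in MEIS1-OE without overlap (0.26 ± 0.080 (SE), adjusted p = 0.0362, edgeR), but its highest library was MEIS1-OE replicate 3, and without that library, MEIS1-KO replicate 6 and ctrl-OE replicate 6 the change was 0.16 with an edgeR adjusted p of 0.12, while with the GC slope in the fit it was 0.30 with an adjusted p of 1.99e-04. AEN was at 123, 139.5 and 152 CPM in ctrl-OE, 134, 166 and 176 in MEIS1-OE and 126, 143 and 150.2 in MEIS2-OE. PLK3 was at 31.00, 35.7 and 37.6 CPM in ctrl-OE, 33.3, 42.6 and 47.8 in MEIS1-OE and 33.2, 37.9 and 40.8 in MEIS2-OE. Both rose in MEIS1-OE with overlapping ranges, AEN by 0.23 ± 0.060 (edgeR adjusted p = 0.00812) and PLK3 by 0.25 ± 0.083 (adjusted p = 0.0496), the latter at the edge of the threshold. Of 12 alternative settings, the MEIS1-OE call was lost in 8 for PLK3, 6 for FAS and 2 for AEN.

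CDKN1A, MDM2, GADD45A, TP53I3, BTG2, XPC, POLH and FBXO22, all called in MEIS2-KO, were called in neither activation. CDKN1A was at 298, 319.9 and 364 CPM in ctrl-OE, 294, 395 and 427 in MEIS1-OE and 288, 331 and 361 in MEIS2-OE, with overlap in both and changes of 0.22 ± 0.074 (edgeR adjusted p = 0.0568) and 0.016 ± 0.074 (adjusted p = 0.996). In MEIS1-OE CDKN1A passed the test with the GC slope in the fit (0.17, edgeR adjusted p = 0.0174) and without the 3 libraries of steep slope (0.31, adjusted p = 8.44e-04). MDM2 was at 286, 311 and 355 CPM in ctrl-OE, 289, 324 and 389 in MEIS1-OE and 316, 321 and 365 in MEIS2-OE, with overlap in both and changes of 0.055 ± 0.069 and 0.055 ± 0.069. GADD45A was at 25.1, 26.96 and 28.5 CPM in ctrl-OE, 26.2, 30.3 and 35.6 in MEIS1-OE and 24.6, 27.9 and 30.6 in MEIS2-OE, with 5 of 6 MEIS1-OE libraries above ctrl-OE and 0.18 ± 0.060 (SE), adjusted p = 0.0603 (edgeR). The ranges of TP53I3 were 94.2 to 113 CPM in ctrl-OE, 98.3 to 119.8 in MEIS1-OE and 93.7 to 109 in MEIS2-OE, those of BTG2 were 45.6 to 59.2, 45.5 to 65.3 and 46.6 to 62.8, and those of XPC were 161 to 175, 173 to 184 and 165 to 183. The ranges of POLH were 54.3 to 70.6, 56.04 to 66.6 and 57.4 to 74.4 CPM and those of FBXO22 were 82.1 to 86.2, 84.9 to 95.5 and 81.4 to 89.1, and for all 5 genes both activations overlapped ctrl-OE. GADD45A, TP53I3 and FBXO22 passed in MEIS1-OE with the GC slope in the fit, at 0.17, 0.098 and 0.12 (edgeR adjusted p = 0.027, 0.015 and 0.014). MDM2, BTG2, XPC and POLH did not pass there in that fit. GDF15 had -0.11 ± 0.18 in MEIS1-OE and -0.12 ± 0.18 in MEIS2-OE. Of the 14 listed cell cycle genes, 8 fell in MEIS1-OE and 1, CDC25C, in MEIS2-OE, with CDC25C at -0.61 and -0.33. With the GC slope in the fit, 16 members rose and 1 fell in MEIS1-OE, where 17.21% of all tested genes were called, and 1 rose in MEIS2-OE, where 2.71% were called.

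Whether the effect of a knockout differed from that of the matching activation was tested in the contrast of overexpression minus knockout, each against its own control, which is the combined measure that the study used. For MEIS2, 6 of 34 members were lower in this contrast (17.6%), that is, they changed more in the direction of a rise in the knockout, against 1.18% of all tested genes. They were GDF15 (-0.96 ± 0.25 (SE), adjusted p = 0.0232, edgeR), FDXR (-0.76 ± 0.19), CDKN1A (-0.50 ± 0.10 (SE), adjusted p = 0.00294), TP53I3 (-0.49 ± 0.071 (SE), adjusted p = 1.64e-05), GADD45A (-0.36 ± 0.086) and XPC (-0.22 ± 0.043). None was higher, by edgeR or DESeq2, while at an unadjusted p under 0.05 edgeR gave 20 lower and 0 higher. The share of all tested genes at that unadjusted limit was not counted for this contrast or for that of MEIS1. The count of 6 moved with the setting, to 10 with DESeq2 or with only the groups compared, 12 with a replicate block, 21 with the GC slope in the fit, 12 without the 3 libraries of steep slope and 3 without replicate 5. The share of all tested genes called in either direction was 2.57% in the analysis reported and, in the same order, 4.23%, 4.37%, 3.65%, 4.39%, 4.67% and 1.16%. Of 12 alternative settings, the calls of GDF15 and FDXR were lost in 4 each (edgeR adjusted p up to 0.0899 and 0.0860) and that of GADD45A in 2 (up to 0.0733), while those of CDKN1A, TP53I3 and XPC were lost in 0. Single libraries also ended calls: GDF15 and FDXR were both lost without MEIS2-OE replicate 1 or 4, MEIS2-KO replicate 4, ctrl-KO replicate 2 or ctrl-OE replicate 6, and GDF15 alone without MEIS2-OE replicate 3 or ctrl-KO replicate 1. For MEIS1, 0 of 34 members were called by edgeR against 3.48% of all tested genes, with 2 higher and 4 lower at an unadjusted p under 0.05, and DESeq2 called 2 lower. This count also moved with the setting, to 3 with a replicate block, to 7 with the GC slope in the fit and further without the 3 libraries of steep slope. In the same order, 4.23%, 8.33% and 7.72% of all tested genes were called. PLK2 had 0.29 ± 0.097 (SE), adjusted p = 0.0924, and CMBL had 0.21 ± 0.063 (SE), adjusted p = 0.0549 in the MEIS1 contrast, both by edgeR. POLH had -0.32 ± 0.096 (SE), adjusted p = 0.0542, and GDF15 had -0.72 ± 0.25 (SE), adjusted p = 0.110. Between the activations, 5 members were lower in MEIS2-OE than in MEIS1-OE (14.7%, against 4.93% of all tested genes): CMBL (-0.36 ± 0.045 (SE), adjusted p = 9.40e-08, edgeR), PHLDA3 (-0.49), AEN (-0.20), TP53I3 (-0.15) and TNFRSF10B (-0.10). With the GC slope in the fit the value of PHLDA3 was -0.29, and that of FDXR in the MEIS2 contrast was -0.48. Of the 5 members CMBL alone did not overlap, and the count fell to 1 without MEIS1-OE replicate 4 or 6, to 2 without MEIS1-OE replicate 2 or 5 or MEIS2-OE replicate 1, 3 or 4 and to 3 without MEIS1-OE replicate 1. Of all tested genes 6.51% to 7.64% were called in either direction in these fits, against 7.75% with all libraries. Over the 12 settings the call of TP53I3 was lost in 7, that of TNFRSF10B in 6, AEN in 5 and PHLDA3 in 4.

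**Figure D4:**
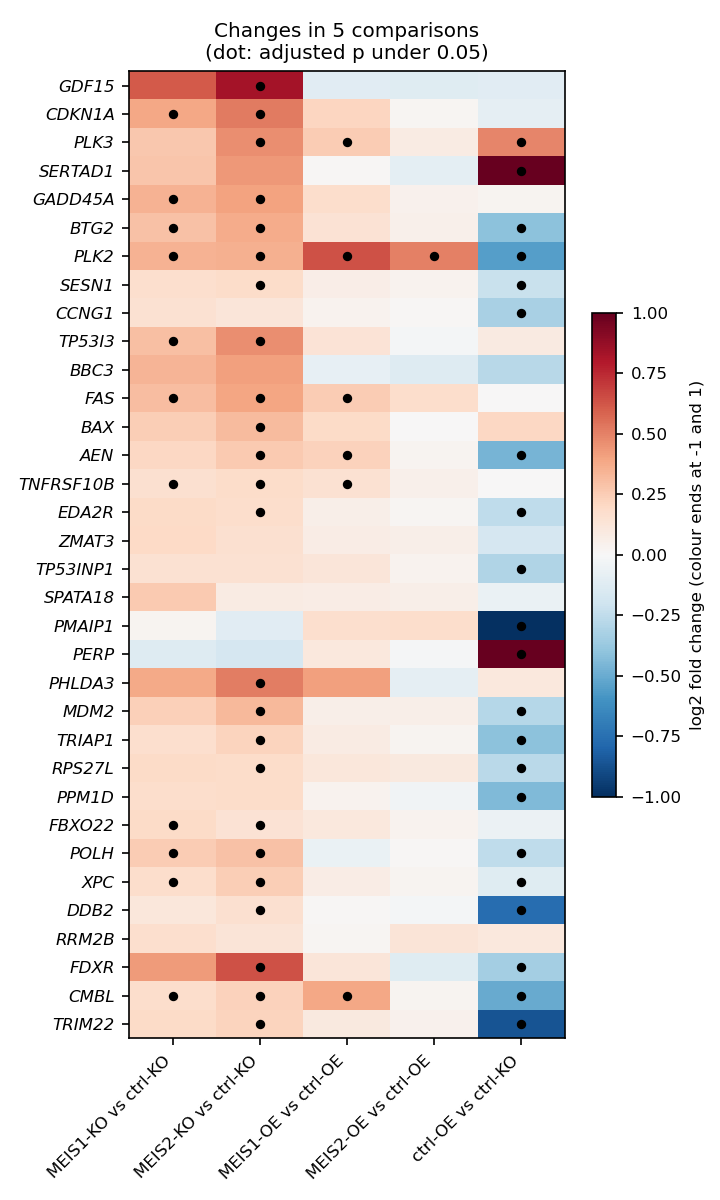
Log2 fold change (colour, red higher and blue lower, ending at -1 and 1) of the 34 members (rows) in 5 comparisons (columns), with a dot where the adjusted p was under 0.05. The knockout columns are red in nearly all rows, the MEIS2-OE column has its single dot at PLK2, and the comparison of the controls is mixed, with SERTAD1 and PERP past the red end and PMAIP1 past the blue end.

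The third comparison was that of the controls, which carry no guide to MEIS1 or MEIS2 and differ in the CRISPR system delivered. Here 51.4% of all tested genes were called, the background against which the members' counts are to be read. Among the members 18 were lower in ctrl-OE than in ctrl-KO (52.9%, against 23.9% of all tested genes) and 3 were higher (8.82%, against 27.5%). The members lower in ctrl-OE came from every role. Of the 18, 13 lay with all ctrl-OE libraries below all ctrl-KO libraries, as did 16.0% of all tested genes. PMAIP1 was at 9.32, 10.4 and 11.1 CPM in ctrl-KO and 3.98, 4.52 and 6.10 in ctrl-OE, without overlap (-1.11 ± 0.12 (SE), adjusted p = 3.22e-10, edgeR). TRIM22 (-0.86), DDB2 (-0.76), PLK2 (-0.55), CMBL (-0.50), AEN (-0.46), PPM1D (-0.45), TRIAP1 (-0.41), CCNG1 (-0.32), MDM2 (-0.28), RPS27L (-0.27), EDA2R (-0.25) and XPC (-0.12) were also lower without overlap, and BTG2, SESN1, TP53INP1, POLH and FDXR were lower with overlap, by -0.23 to -0.41. The call of FDXR was lost in 4 of 12 alternative settings (-0.21 to -0.44, edgeR adjusted p up to 0.264) and without any 1 of 9 of the 12 control libraries, the exceptions being replicate 2 of either group and ctrl-OE replicate 6. With the GC slope in the fit the values of SESN1, EDA2R, TP53INP1, MDM2, RPS27L and POLH were smaller, from -0.10 for SESN1 to -0.18 for MDM2, and that of FDXR was larger (-0.68). The 3 higher members were SERTAD1, at 5.12, 6.19 and 7.24 CPM in ctrl-KO and 15.03, 18.2 and 23.3 in ctrl-OE (1.57 ± 0.15 (SE), adjusted p = 2.25e-11, edgeR), PLK3 (0.49) and PERP (1.88), which had 2 to 7 counts per library in ctrl-KO and 13 to 32 in ctrl-OE. CDKN1A (-0.092), GADD45A (0.031), FAS (0.0027), TNFRSF10B (0.0050) and TP53I3 (0.090), all of which rose in the knockouts, did not pass between the controls.

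Other measures moved with this comparison. All 14 listed cell cycle genes were lower in ctrl-OE, with a summed level of 2309 to 2620 CPM in ctrl-OE and 3987 to 4259 in ctrl-KO, and 7 of 8 neural stem cell markers were lower, with summed levels of 2930 to 3799 and 4334 to 4846 CPM. Summed neuronal markers were at 405 to 587 CPM in ctrl-OE and 969 to 1013 in ctrl-KO. Of the 6 that could be tested, 4 were lower in ctrl-OE: MAP2, at a median of 263 against 754 CPM, which made up most of the difference in the sum, SYT1 (32.6 against 51.6), SNAP25 (1.70 against 4.43) and DCX (0.348 against 0.857). TUBB3 and STMN2 did not pass, and RBFOX3 had medians of 0 in both. The part of these in the members' differences was not tested. Over the 6 groups, 20 members had all 3 medians of the activation system below all 3 of the knockout system, and PERP, PLK3 and SERTAD1 had them above. MEIS2-KO held the highest median of the 6 groups for 18 members and MEIS1-KO for 9, and ctrl-OE held the lowest for 17. These orders of medians were not counted over all tested genes, of which 51.4% were called between the controls. They are therefore not shown to be particular to the members. In the analysis reported, BBC3, SPATA18, ZMAT3 and RRM2B were called in none of the 5 comparisons with a control. Over the 36 libraries BBC3 ran from 10.2 to 39.6 CPM, SPATA18 from 5.58 to 9.50, ZMAT3 from 70.5 to 118 and RRM2B from 88.6 to 127.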

How the data were processed

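RNA of 36 libraries (6 groups of 6) was measured by mRNA-seq with a TruSeq stranded kit and a read length of 100. The deposited values are counts of reads per gene, which the authors made with STAR and HTSeq on hg19. The study names STAR 2.4.2a and HTSeq 0.6.0, while the submitters' processing notes list STAR 2.7.0a and Trimmomatic 0.39. The annotation and the strand setting of the counting are not given in the sources used here, so that reads of overlapping or antisense genes may be shared. Total counts were 15429985 to 22940493 per library. Replicates of a group differed by more than sampling noise (chi-square per degree of freedom 2.63 to 36.0, no identical pairs).

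Counts were analysed with edgeR 4.0.16 and limma 3.58.1 in R 4.3.3: TMM normalisation, genes with at least 10 counts over all libraries, 1 quasi-likelihood fit of the 6 groups (common biological coefficient of variation 0.0915), two-sided tests, and Benjamini-Hochberg adjustment over the 19689 genes tested, called at 0.05. Every adjusted p in the text is from this test unless another is named. Log2 fold changes used a prior count of 0.125, and their SE was taken as the change divided by the square root of F. Nothing beyond the count table was needed for the levels, which are CPM after TMM.

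On counts simulated for MEIS2-KO against ctrl-KO (19512 genes), the fit recovered 23 of 50 genes changed 1.2-fold, 47 of 50 changed 1.5-fold and all 50 changed 2-fold up or 0.5-fold down, with 5 false calls. Only genes with more than 50 counts expected per library were changed. The counts were drawn independently for each gene, without the GC slopes of the libraries. These figures therefore do not cover errors that genes share within a library. Alternatives were RLE size factors, other filters on low counts, a replicate block, only the groups compared, DESeq2 1.42.0, a limit of 0.58 on the log2 fold change and leaving out libraries. A GC covariate, leaving out 3 libraries and leaving out each library alone were chosen after seeing the data. Lowest, median and highest values are printed for MDM2 and CDKN1A, for members called in both knockouts and for members called in 3 or more of 5 comparisons, and other members by range and count, with values for PMAIP1, SERTAD1, GDF15 and the uncalled members added after their values were seen. The members, roles and lists of other genes were chosen with earlier results of these data known, and some listed genes are not reported here. GC content (85.8% of tested genes matched, all 34 members) and transcript starts come from GENCODE v44 lifted to GRCh37, and sequences from GRCh37. Python 3.11.15, numpy 2.4.6, pandas 2.3.3 and matplotlib 3.10.9 were used for sequences and figures.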

Additional observations from a re-analysis of the deposited data

Results flagged for a closer look

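In 13 of 204 sets of 1 gene in 1 group, a library stood apart from the other 5 by Dixon's criterion, which chance passes in about 1 in 20 groups. Of these, 6 came from MEIS1-OE replicate 3. It was the lowest library of its group for BAX (175.5 CPM), BBC3 (10.2), PHLDA3 (31.7) and SERTAD1 (12.1), and the highest for FAS (22.8) and TP53INP1 (180.9). Its GC slope was 0.261 below its group mean, and the first 3 of these genes are GC-rich while FAS and TP53INP1 are AT-rich.

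The highest library of ctrl-OE was replicate 6 for BBC3 (27.6 CPM) and GDF15 (22.6). The highest library of ctrl-KO was replicate 2 for PLK2 (213.1 CPM) and SESN1 (168.0). MDM2 was highest in MEIS2-OE replicate 2 (364.5 CPM), TP53INP1 was lowest in MEIS1-KO replicate 6 (135.9), and ZMAT3 was lowest in MEIS2-KO replicate 1 (78.2).

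The effect of MEIS2 overexpression differed from that of MEIS2 knockout in 6 members, by the interaction tested with edgeR: CDKN1A (-0.50), GADD45A (-0.36), GDF15 (-0.96), TP53I3 (-0.49), XPC (-0.22) and FDXR (-0.76), given as the overexpression change minus the knockout change on the log2 scale. Of all tested genes 1.18% were lower in this contrast. The count of 6 members ran from 3 to 12 over 12 alternative settings. The calls of GDF15 and FDXR were each lost in 4 of these settings and that of GADD45A in 2.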

How the results depend on the processing

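Counts are of members called out of 34. In the knockouts MEIS1-KO had 11 called in the analysis reported, 17 with DESeq2, 7 with only the groups compared, 0 with the limit of 0.58 on the log2 fold change and 6 to 16 when a library or replicate number was left out. Of all tested genes 1.46% were called there in the analysis reported, 2.98% of those given an adjusted p by DESeq2 and 1.197% with only the groups compared. Over the leave-outs 0.555% to 2.20% were called there. MEIS2-KO had 24, where 10.03% of all tested genes were called, with 16 to 29 over the 12 alternative settings, 2 under that limit and 16 to 25 over the leave-outs. The share of all tested genes ran from 4.87% to 14.36% over these settings, the latter of those given an adjusted p by DESeq2. Over the leave-outs it ran from 4.87% to 10.84%. MEIS1-OE had 6, with 1 under the limit and 3 to 9 over the leave-outs, and MEIS2-OE had 1, with 0 under the limit. Of all tested genes 9.10% were called in MEIS1-OE, with 5.92% to 12.65% over the leave-outs, and 1.35% in MEIS2-OE. The controls differed in 21, with 5 under the limit, where 51.4% of all tested genes were called without the limit. Shares of all tested genes past the limit are given above for the knockouts only. MEIS2-OE against MEIS1-OE had 5, with 3 under RLE size factors, 2 with only the groups compared, 0 under the limit and 1 to 7 over the leave-outs. The MEIS1 contrast had 0, with 1 under RLE size factors, 1 under filterByExpr, 1 with only the groups compared, 2 with DESeq2 and 0 to 2 over the leave-outs. The MEIS2 contrast had 6, with 10 with only the groups compared, 10 with DESeq2, 2 under the limit and 3 to 8 over the leave-outs. Of all tested genes 2.57% were called in it in the analysis reported and 4.37% with only the groups compared. DESeq2 called 4.23% of those given an adjusted p, and the leave-outs gave 1.16% to 3.07%. The shares of all tested genes in the MEIS1 contrast were 3.48% in the analysis reported, 3.42% under RLE size factors, 4.89% under filterByExpr, 2.93% with only the groups compared and 5.32% with DESeq2, and between the activations 7.75%, with 7.88% under RLE size factors and 6.46% with only the groups compared. The cause of these shifts was not tested, except that fewer libraries or a stricter limit entered some fits. With the GC slope as a covariate, chosen after seeing the data, the counts were 29 in MEIS1-KO, 17 in MEIS1-OE, 7 in the MEIS1 contrast and 21 in the MEIS2 contrast, where 4.44%, 17.21%, 8.33% and 4.39% of all tested genes were called. Without the 3 libraries of steepest slope they were 21, 10, 8 and 12, and 10 between the activations, where 1.79%, 18.45%, 7.72%, 4.67% and 15.32% of all tested genes were called.

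With a replicate block the counts were 16 in MEIS1-KO, 25 in MEIS2-KO, 9 in MEIS1-OE, 1 in MEIS2-OE, 22 between the controls, 6 between the activations, 3 in the MEIS1 contrast and 12 in the MEIS2 contrast. Of all tested genes 2.33%, 12.12%, 10.38%, 1.55%, 52.86%, 8.84%, 4.23% and 3.65% were called with the block in these comparisons. Same-numbered libraries of different groups correlated at a mean of 0.099 and differently numbered ones at -0.021, and 14 of 36 libraries correlated best with their own number. Since 46 of 90 same-numbered pairs, and not all, correlated above 0.1, with the lowest at -0.48, the numbers were not treated as a pairing, and a shared factor behind them was not tested.

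No called member changed direction under any of these settings. Of 74 calls of a member in a comparison, 9 were lost with only the groups compared, 4 with RLE size factors, 2 without a filter and 8 to 23 without a replicate number. The uncalled change of CDKN1A in MEIS2-OE ran from -0.0039 to 0.037 without a replicate number (below 0 without replicate 2 or 4) around 0.016, and that of MDM2 in MEIS1-OE from 0.055 to -0.027 without the 3 libraries.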

Other observations

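Genes outside the p53 targets were followed in the same libraries as fixed lists. IER3, an immediate early gene, rose in both knockouts, by 0.51 in MEIS1-KO and 0.70 in MEIS2-KO, and EGR2 had -0.89 in MEIS2-KO (edgeR adjusted p = 0.0126). Among neural stem cell markers PAX6, a regulator of neural progenitors, had -0.42 and -0.52 in MEIS1-KO and MEIS2-KO and VIM, an intermediate filament gene, 0.25 and 0.33, all 4 past the threshold. SOX1 (-0.33) and FABP7 (-0.36) passed in MEIS2-KO. DCX, a marker of migrating neurons, had -0.997 there (edgeR adjusted p = 0.0383), at a median of 0.402 CPM against 0.857 in ctrl-KO. It was the only 1 called of the 6 neuronal markers tested in MEIS2-KO. Medians of TUBB3 (221 against 179 CPM) and SNAP25 (5.29 against 4.43) were higher than in ctrl-KO. Those of MAP2 (689 against 754), SYT1 (50.3 against 51.6) and STMN2 (0.0504 against 0.0536) were lower. Astrocyte, oligodendrocyte and pluripotency markers did not pass in either knockout.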
